A study of Mus musculus with 8 samples.

Results

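CaV1.1, encoded by *Cacna1s*, is the voltage sensor in the transverse tubules of skeletal muscle that opens the ryanodine receptor of the calcium store, so that muscle without it is not activated to contract by its nerve. β-catenin, encoded by *Ctnnb1*, holds cadherins to the cytoskeleton at cell contacts and, on Wnt signals, enters the nucleus to activate target genes together with TCF and LEF factors. Embryonic muscle needs both for an ordered neuromuscular junction (NMJ), the synapse at the middle of each fiber where acetylcholine receptors (AChR) gather. The data set here one mutant against the other: muscle of a CaV1.1 knockout (KO) diaphragm and muscle of a β-catenin conditional knockout (β-cat cKO) diaphragm, both from mouse embryos at E18.5, to ask which genes differ between muscle that lacks the calcium channel and muscle that lacks β-catenin.

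Spatial transcriptomes were read from 8 Visium sections of embryonic diaphragm, each 5 µm thick and covered by spots of 55 µm at a spacing of 100 µm, with probes for 19465 genes. The contrast uses 2 of them, 1 KO and 1 cKO section at E18.5, so that neither genotype has a replicate. The KO is a whole-body null: its embryos are homozygous for the dysgenic (*mdg*) allele, and so every cell of the section lacks the channel. The cKO deletes floxed β-catenin with a Cre driven by the human skeletal actin (HSA) promoter, and thus nonmuscle cells of the section keep the gene. Per the methods of the study some litters came from crosses of both lines, so that a KO embryo may carry floxed β-catenin alleles and a cKO embryo 1 null allele of CaV1.1. The 2 control sections at E18.5 carry at least 1 working allele of each gene, and their levels are printed beside the mutants without entering the contrast.

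Muscle spots were chosen by a measured value, the mean log-normalized level of 9 muscle genes (*Acta1*, *Actn2*, *Des*, *Myl1*, *Mylpf*, *Neb*, *Ryr1*, *Tnnt3*, *Ttn*), among spots with at least 1000 UMIs. A spot counted as muscle where this mean lay above the Otsu threshold of its section. This gave 813 of 1331 spots in the KO and 1577 of 2157 in the cKO, together 2390 of the 9873 muscle spots in the series. In the KO the lowest spot taken scored 3.186 and the highest left out 3.175, and in the cKO these were 3.196 and 3.191. Muscle spots of the KO hold 16293312 UMIs with a median of 19362 per spot, and those of the cKO 48272179 with a median of 29861. A spot holds several cells and is no replicate, so UMIs were summed over the muscle spots of each section, and fewer muscle cells under a spot cannot be told apart from less RNA per cell. Log2 fold changes are KO over cKO, and a ± after one is its standard error (SE). All levels below are CPM, which sets UMIs relative to the TMM-scaled total of the section, in these sums, unless they are called raw.

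The sections differ in more than genotype. All 4 Y-linked genes measured (*Ddx3y*, *Eif2s3y*, *Kdm5d*, *Uty*) had 0 UMIs in the KO and 6636 together in the cKO, and both controls had them too, so that sex and genotype cannot be told apart. *Krt4*, *Krt5*, *Krt15* and *Psca*, genes of stratified epithelium such as that of the esophagus, summed to 333 raw CPM in cKO muscle spots against 2.46 in the KO. Genes of hepatocytes summed to 603 raw CPM in KO muscle spots against 4.76 in the cKO, with 65% of the *Alb* UMIs in 5% of the KO muscle spots. Leaving out the 223 cKO spots with epithelial genes and the 96 KO and 2 cKO spots with liver genes, a setting chosen after seeing the data, raised the calls given next to 576 and 770. Their part in the results was not tested beyond this. Lateral (costal) and dorsal (crural) muscle of the diaphragm were pooled, and their shares of the muscle spots in each section were not measured.

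Of 14832 genes with enough counts, 1082 (7.30%) differed between KO and cKO muscle by edgeR's quasi-likelihood test at a Benjamini-Hochberg adjusted p under 0.05. Of these, 425 (2.87%) were higher in the KO and 657 (4.43%) higher in the cKO, among them *Acta1*, which helped to choose the spots. The 657 also hold the epithelial genes *Krt4*, *Krt5*, *Krt15* and *Psca*. All 8 sections entered the fit, with 3 controls and 1 KO section at E14.5 beside those at E18.5. The test takes its spread from the controls, for which the 3 at E14.5 give most of the 3 residual degrees of freedom, and assumes that each mutant section varies as they do, and p-values measure only the spread between those sections. By size alone, with no test, 265 of 9917 genes with over 10 CPM in either section (2.67%) were at least 2-fold higher in the KO and 307 (3.10%) at least 2-fold higher in the cKO. With the 4 sections at E18.5 alone the calls were 315 and 558. Leaving out control 3 at E14.5 lowered the calls to 206 and 306, whereas the other controls left between 320 and 634 and between 443 and 831. Scaling each section to its 9 muscle genes instead of TMM moved the median of all genes by 0.89 on the log2 scale and turned the split of calls to 8262 against 220. Changes are therefore given relative to the bulk of genes, and a called gene named below whose sign depends on this is marked as such.

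**Figure D1:**
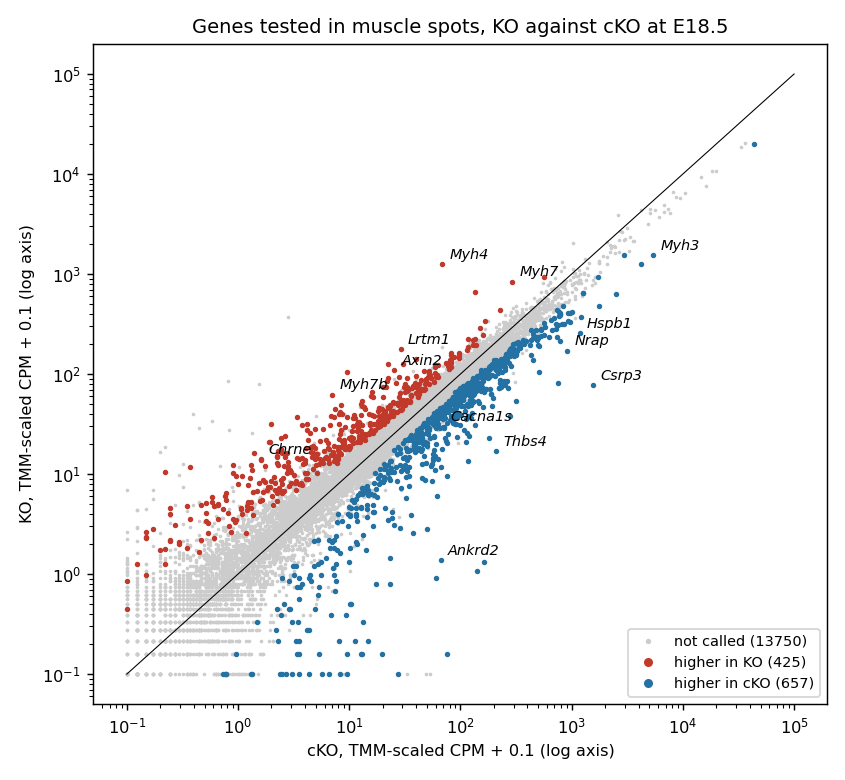
Each point is a gene tested in muscle spots, with its level in the cKO on the x axis and in the KO on the y axis, both as TMM-scaled CPM plus 0.1 on log axes. Red points are the 425 genes called higher in the KO, blue points the 657 called higher in the cKO, and *Csrp3*, *Thbs4* and *Ankrd2* lie far under the line of equal levels, *Myh4* far above it.

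For both directions the controls show where each mutant stood. Among genes higher in the KO, the cKO lay nearer to the mean of the controls for 298 of 425 and the KO for 127. Among genes higher in the cKO, the cKO was the nearer for 518 of 657 and the KO for 139. In 253 of the first group and 286 of the second, 1 mutant lay above both controls and the other below both. These counts describe the 4 sections and carry no test. The same counts were not made over all genes tested, so how near each mutant section lies to the controls in general is not given.

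Genes that respond to load and build the Z-disc and myofibril were among the largest differences, all lower in the KO. *Csrp3*, the muscle LIM protein of the Z-disc (GRCm38 chr7:48830398-48848033, minus strand), stood at 77.3 CPM in the KO, 1570.1 in the cKO, 1594 in control 1 and 1514 in control 2. The cKO thus lay at the level of the controls and the KO 20.3 times lower than the cKO, with a counting interval from 19.2 to 21.5 (log2 fold change -4.34 ± 0.35 (SE), adjusted p = 0.00127). The difference held over the whole muscle: the median spot had 0.563 *Csrp3* UMIs per 10000 in the KO and 12.4 in the cKO, and the 90th percentile of the KO, 2.15, lay under the 10th percentile of the cKO, 5.88.

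*Ankrd2*, a stretch-induced ankyrin repeat protein, had only 22 UMIs in the KO, 1.28 CPM, against 66.3 CPM in the cKO and 129.8 and 175 in the controls. Its ratio was 52 with an interval from 34.2 to 83 (log2 fold change -5.69 ± 0.37 (SE), adjusted p = 0.000809). Its relative *Ankrd1* (CARP) stood at 13.3 CPM in the KO, 117 in the cKO, and 50.1 and 68.7 in the controls (log2 fold change -3.14 ± 0.26 (SE), adjusted p = 0.00127), so that the mutants lay on either side of both controls. The third of the family, *Ankrd23*, showed the same order, with 22.8 CPM in the KO, 182 in the cKO and 84.1 and 105 in the controls (log2 fold change -2.99 ± 0.18 (SE), adjusted p = 0.000809).

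Of 18 genes listed for stretch and myofibril assembly, 17 were tested. Of these 6 were lower in the KO and 0 higher: *Csrp3*, *Ankrd2*, *Ankrd1*, *Nrap*, *Flnc* and *Fhl1*, and DESeq2 called 7 lower and 1 higher. The median log2 fold change of the list was -0.23, against 0.01 over all genes. Counts of calls in this and later lists stand against 2.87% of all genes higher in the KO and 4.43% lower. *Nrap*, which anchors actin during myofibril assembly, stood at 172 CPM in the KO and 911 in the cKO, with controls at 745 and 744 (log2 fold change -2.41 ± 0.30 (SE), adjusted p = 0.00528). *Flnc* (filamin C) had 341 and 924 CPM. *Fhl1* was low in both mutants, at 278 CPM in the KO and 665 in the cKO against 2462 and 2600.4 in the controls, and its call was lost at matched muscle score (-0.70), with scaling to muscle genes and without control 3 at E14.5. The YAP targets and partners of the same list, among them *Ccn1*, *Ccn2* and *Tead1*, were not called.

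Of 28 further sarcomere and Z-disc genes tested, 7 were lower in the KO and 0 higher, while DESeq2 called 15 lower and 0 higher. The median of the list was -0.68, and with scaling to the 9 muscle genes it turned to 0.20, where all genes stood at 0.89. The small heat shock protein *Hspb1* had 256 CPM in the KO, 1179 in the cKO and 1147 and 1434 in the controls (log2 fold change -2.20 ± 0.23 (SE), adjusted p = 0.00270). *Hspb7* (-1.88 ± 0.31) and *Lmod2*, a leiomodin that sets thin filament length (-1.87 ± 0.27), were lower in the KO too, on the log2 scale. *Synpo2* (-1.06 ± 0.20), *Pdlim3* (-1.02 ± 0.23), *Klhl40* and *Smyd1* were lower as well, and were not called after scaling to muscle genes, at matched muscle score or without control 3 at E14.5. The 9 genes that chose the spots ranged from -1.13 (*Acta1*) to -0.10 (*Ryr1*) on the log2 scale, which is a description of the spots taken. *Neb* and *Ryr1* turned sign in interior spots and at matched score, and scaling to these 9 genes centers them by construction.

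At the myotendinous junction (MTJ), where fibers attach to tendon, 4 of 13 genes were lower in the KO and 1 higher (median -0.50). *Ankrd1*, already counted in the stretch list above, was 1 of the 4. *Thbs4*, a thrombospondin of the junction matrix, stood at 16.8 CPM in the KO, 210.4 in the cKO, 189.6 and 230.2 in the controls (log2 fold change -3.65 ± 0.27 (SE), adjusted p = 0.00117). *Col22a1*, the collagen of the junction, had 27.5 CPM in the KO and 107 in the cKO (log2 fold change -1.96 ± 0.16 (SE), adjusted p = 0.00140). *Uchl1* followed (-2.12 ± 0.23), and *Maml2* was the gene that was higher in the KO (0.91 ± 0.17), a call lost in interior spots, at matched muscle score and without control 3 at E14.5. Of the tendon markers, *Tnmd* was lower in KO muscle spots too, at 25.5 against 115 CPM, and *Scx* and *Col12a1* were called lower with TMM but turned sign with scaling to muscle genes. The 7 tendon markers summed to 480.0 raw CPM in the KO and 539 in the cKO, and the part of tendon under the spots in these differences was not tested.

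**Figure D2:**
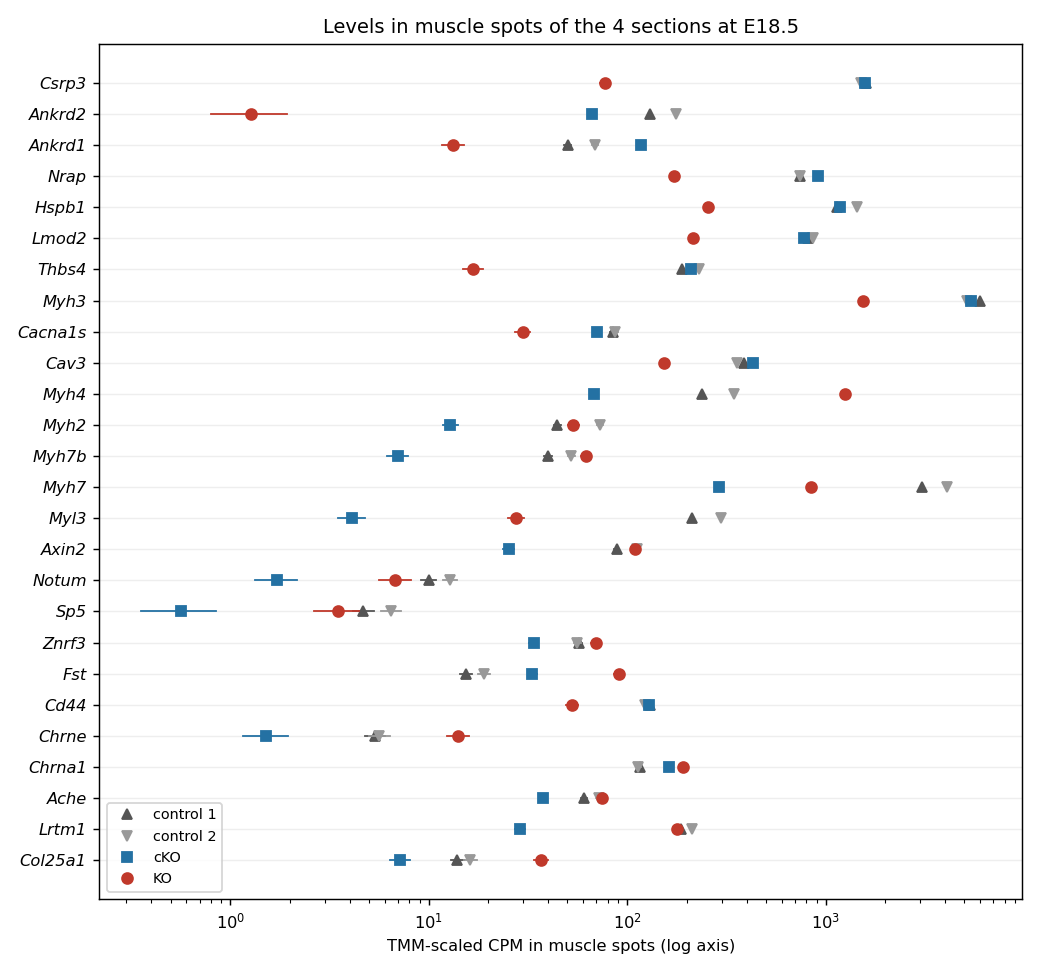
TMM-scaled CPM in muscle spots (x axis, log) of 26 genes (y axis) in the KO, the cKO and both controls at E18.5, with lines for the exact 95% Poisson interval of the counts. For *Csrp3*, *Nrap*, *Hspb1* and *Thbs4* the cKO lies by the controls and the KO to the left, whereas for *Axin2* and *Lrtm1* the KO lies by the controls and the cKO to the left.

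Myosin heavy chains, the motor proteins whose isoform sets the speed of a fiber, differed by isoform. *Myh4*, the heavy chain of the fastest (IIb) fibers, stood at 1249 CPM in the KO, 68.4 in the cKO, 238 in control 1 and 344 in control 2. The KO lay above both controls and the cKO below both, a ratio of 18.3 (counting interval 17.5 to 19, log2 fold change 4.19 ± 0.32 (SE), adjusted p = 0.00117). At 5000 UMIs per spot, 96.5% of KO muscle spots had a *Myh4* UMI and 24% of cKO spots, and at full depth 99.9% and 66.3%. Outside muscle spots the shares at 5000 UMIs were 76.7% and 3.23%. Thinning left out 4 KO and 66 cKO muscle spots with fewer UMIs. In both sections the gene was also read outside muscle spots, at 344 raw CPM in the KO and 7.34 in the cKO.

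*Myh2*, of IIa fibers, had 53.6 CPM in the KO, 12.8 in the cKO and 44.4 and 73 in the controls (log2 fold change 2.06 ± 0.32 (SE), adjusted p = 0.0115). Here the KO lay between the controls and the cKO under both. *Myh1*, of IIx fibers, at 2023 and 1028 CPM, did not pass the test (adjusted p = 0.10), and *Myh13* was not analysed here. Alternatives that called *Myh1* higher in the KO included DESeq2 (adjusted p = 0.00477), matched muscle score and scaling to muscle genes. The embryonic *Myh3* went the opposite way, with 1537 CPM in the KO, 5407 in the cKO and 6007 and 5168 in the controls (log2 fold change -1.81 ± 0.26 (SE), adjusted p = 0.00879). The perinatal *Myh8*, the most abundant of them, stood at 20589.6 and 36253 CPM and was not called (adjusted p = 0.116), and its sign turned with scaling to muscle genes. It was called lower in the KO by DESeq2 (adjusted p = 0.00335), with the E18.5 sections alone and without control 1 at E14.5. The *Myh* genes are close paralogs, and how far each probe pair tells them apart is not given in the sources used here.

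The slow fiber genes *Myh7*, *Myl3* and *Myl2* stood below both controls in both mutants. *Myh7*, the slow heavy chain, had 3060.2 and 4094 CPM in the controls, 842 in the KO and 291 in the cKO (log2 fold change 1.53 ± 0.25 (SE), adjusted p = 0.0138). *Myl3*, a slow light chain, had 212 and 297 CPM in the controls, 27.5 in the KO and 4.08 in the cKO (log2 fold change 2.75 ± 0.36 (SE), adjusted p = 0.00594). *Myh7b* stood at 62 CPM in the KO and 6.97 in the cKO, with controls at 39.9 and 52.4, so that only the cKO lay below them (log2 fold change 3.15 ± 0.24 (SE), adjusted p = 0.00117). In all 4 of 14 slow genes were higher in the KO, the last being *Myh6*, whose call was lost at matched muscle score, with the cKO thinned to the KO total and without control 3 at E14.5, and 0 lower (DESeq2: 5 and 2), with a median of 0.28. *Myl2*, another slow light chain, was at 20.9 CPM in the KO and 21.2 in the cKO against 490.5 and 627 in the controls, and *Tnnt1* at 3935 and 2631 CPM, and neither passed the test.

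Fast fiber genes listed apart from the myosin heavy chains did not share the direction of *Myh4*. Of 12 fast fiber genes 0 were higher in the KO and 2 lower, *Mybpc2* (-1.25 ± 0.18) and *Actn3* (-0.96 ± 0.20), and DESeq2 called 0 higher and 6 lower. Both calls were lost at matched muscle score, where *Mybpc2* was at -0.19 and *Actn3* at -0.32, and with scaling to muscle genes, and that of *Actn3* also in interior spots and without control 2 or 3 at E14.5. The list median was -0.74 with TMM, and with scaling to muscle genes it was 0.14, under the 0.89 of all genes. *Mybpc2*, a fast myosin-binding protein, stood at 410.4 CPM in the KO, 974 in the cKO and 1213 and 1469 in the controls. *Pvalb*, the calcium buffer of fast fibers, at 359.8 and 1076 CPM, lay within a wide error (-1.58 ± 0.52, adjusted p = 0.114).

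The 160 bases before the start of *Myh4* (RefSeq, GRCm38.p6, chr11:67237652-67237811, plus strand) are shown since this gene stood above the cKO and both controls. Capitals mark a CArG box and an E-box, a serum response factor motif and the CANNTG motif of myogenic factors. *Myh4* also has a MEF2 motif at -182 and another E-box at -221, which lie upstream of the printed bases.
Myh4: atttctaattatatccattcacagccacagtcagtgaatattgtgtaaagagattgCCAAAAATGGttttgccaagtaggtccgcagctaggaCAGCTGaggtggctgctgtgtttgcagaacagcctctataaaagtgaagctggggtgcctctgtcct
A CArG box lay in the 250 bases before the start of 1.14% of the 11538 tested genes with a promoter in the table, of 1.60% of the 312 such genes higher in the KO and of 2.99% of the 501 higher in the cKO. An E-box was in 58.4%, 62.2% and 59.3%, and a MEF2 motif in 1.79%, 3.85% and 3.79%. A match describes these letters and is no evidence of binding.

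Wnt target genes came next, and most of those called were lower in the cKO. *Axin2*, a scaffold of the β-catenin destruction complex that Wnt signals induce (GRCm38 chr11:108920349-108950783, plus strand), stood at 109.7 CPM in the KO, 25.2 in the cKO, 88.4 in control 1 and 112 in control 2. The KO lay within the controls and the cKO below both, 4.34 times under the KO (counting interval 4.02 to 4.69, log2 fold change 2.12 ± 0.19 (SE), adjusted p = 0.00184). Outside muscle spots the gap was smaller, 90.7 raw CPM in the KO and 52.2 in the cKO, with controls at 56.6 and 54.3. At 5000 UMIs, 42.3% of KO muscle spots held an *Axin2* UMI against 11.3% of cKO muscle spots, where 22.6% of the cKO spots outside muscle did.

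Of 23 Wnt target genes tested of 24 listed, 7 were higher in the KO and 2 lower, with a median of 0.15. The feedback inhibitors *Notum*, a lipase that inactivates Wnt, (6.78 against 1.71 CPM, log2 fold change 1.98 ± 0.29 (SE), adjusted p = 0.00925) and *Znrf3*, a ligase that removes Frizzled receptors, (69.8 against 33.8 CPM, log2 fold change 1.05 ± 0.14 (SE), adjusted p = 0.00621) were among the 7. So were *Nkd1* (1.08 ± 0.23) and *Dkk2* (1.12 ± 0.18). The call of *Nkd1* was lost with the E18.5 sections alone, at matched muscle score and without control 2 or 3 at E14.5, and that of *Dkk2* in interior spots. In the controls *Notum* stood at 10 and 12.8 CPM and *Znrf3* at 57 and 56.1, above the cKO in each case.

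*Sp5*, a transcription factor induced by Wnt, had few counts: 60 UMIs in the KO and 23 in the cKO, or 3.48 and 0.563 CPM, with controls at 4.69 and 6.45 (log2 fold change 2.62 ± 0.53 (SE), adjusted p = 0.0289). The call was lost in interior spots, at matched muscle score and among the muscle spots above their section's median score. Its upstream bases (RefSeq, GRCm38.p6, chr2:70474673-70474922, plus strand) are shown because they hold the core letters of the TCF and LEF motif, CTTTGAT or CTTTGTT, in capitals. The first run is CTTTGTT on the other strand.
Sp5: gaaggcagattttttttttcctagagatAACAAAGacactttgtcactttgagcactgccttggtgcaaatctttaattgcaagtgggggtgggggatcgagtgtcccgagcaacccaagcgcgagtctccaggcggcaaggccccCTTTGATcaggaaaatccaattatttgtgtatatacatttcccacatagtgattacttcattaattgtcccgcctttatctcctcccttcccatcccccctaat
These core letters stood in 5.78% of all such promoters, in 6.73% of those of genes higher in the KO and in 4.39% of those higher in the cKO, and in 1 of the 13 Wnt target promoters in the table.

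*Fst* (follistatin, which binds myostatin and activin) was also called higher in the KO. It had 90.5 CPM in the KO, 33.3 in the cKO, and 15.4 and 19 in the controls, so that both mutants lay above both controls (log2 fold change 1.44 ± 0.16 (SE), adjusted p = 0.00313). *Cd44*, a hyaluronan receptor, was lower in the KO, at 52.8 CPM, than in the cKO at 129 and the controls at 130.4 and 123 (log2 fold change -1.29 ± 0.14 (SE), adjusted p = 0.00322), a call lost with scaling to muscle genes. *Tnfrsf19* was called lower in the KO by 0.51 with TMM, but was higher there with scaling to muscle genes. Of the 28 tested members of the β-catenin complex and the Wnt pathway upstream of these targets 0 were called in edgeR, with 7 at an unadjusted p under 0.05, and DESeq2 called 1 higher in the KO and 2 in the cKO.

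*Ctnnb1* itself stood at 72.9 CPM in the KO, 96.2 in the cKO, and 105 and 97.4 in the controls (log2 fold change -0.40 ± 0.14 (SE), adjusted p = 0.137). With scaling to muscle genes its difference turned to 0.48 and was not called. With TMM the cKO level lay at that of the controls. Whether its probes lie in the floxed exons is not given in the sources used here, and nonmuscle cells under the spots keep the gene, so this level does not check the deletion. *Jup* (plakoglobin), its closest relative, had 165 and 162 CPM (adjusted p = 0.928).

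*Cacna1s* was lower in the KO, with 29.7 CPM against 70.4 in the cKO and 84.4 and 87.3 in the controls (log2 fold change -1.24 ± 0.16 (SE), adjusted p = 0.00558). The *mdg* transcript may still be read by probes that lie away from the mutation, and so the 512 UMIs of the KO check nothing about the protein. Beside it, 3 more of 20 genes of the channel and the triad were lower in the KO and 0 higher, and DESeq2 called 9 lower and 0 higher: *Cav3*, the muscle caveolin (log2 fold change -1.48 ± 0.18 (SE), adjusted p = 0.00533), *Cacng1*, the γ subunit of the channel (-1.15 ± 0.18), and *Jph2*, a junctophilin that ties the tubule to the calcium store (-0.92 ± 0.15). None of the 4 was called after scaling to muscle genes, and *Cacna1s*, *Cacng1* and *Jph2* were not called at matched muscle score. The list median was -0.51 with TMM and 0.37 after that scaling, under the 0.89 of all genes. *Stac3*, an adaptor of the channel, had 91.2 and 86.5 CPM (log2 difference 0.08 ± 0.20). Of 14 genes of the calcium store and calcium buffering, the sodium-calcium exchanger *Slc8a1* was the 1 called, higher in the KO (89.1 against 48.6 CPM, log2 fold change 0.87 ± 0.14 (SE), adjusted p = 0.0119), but not at matched muscle score.

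**Figure D3:**
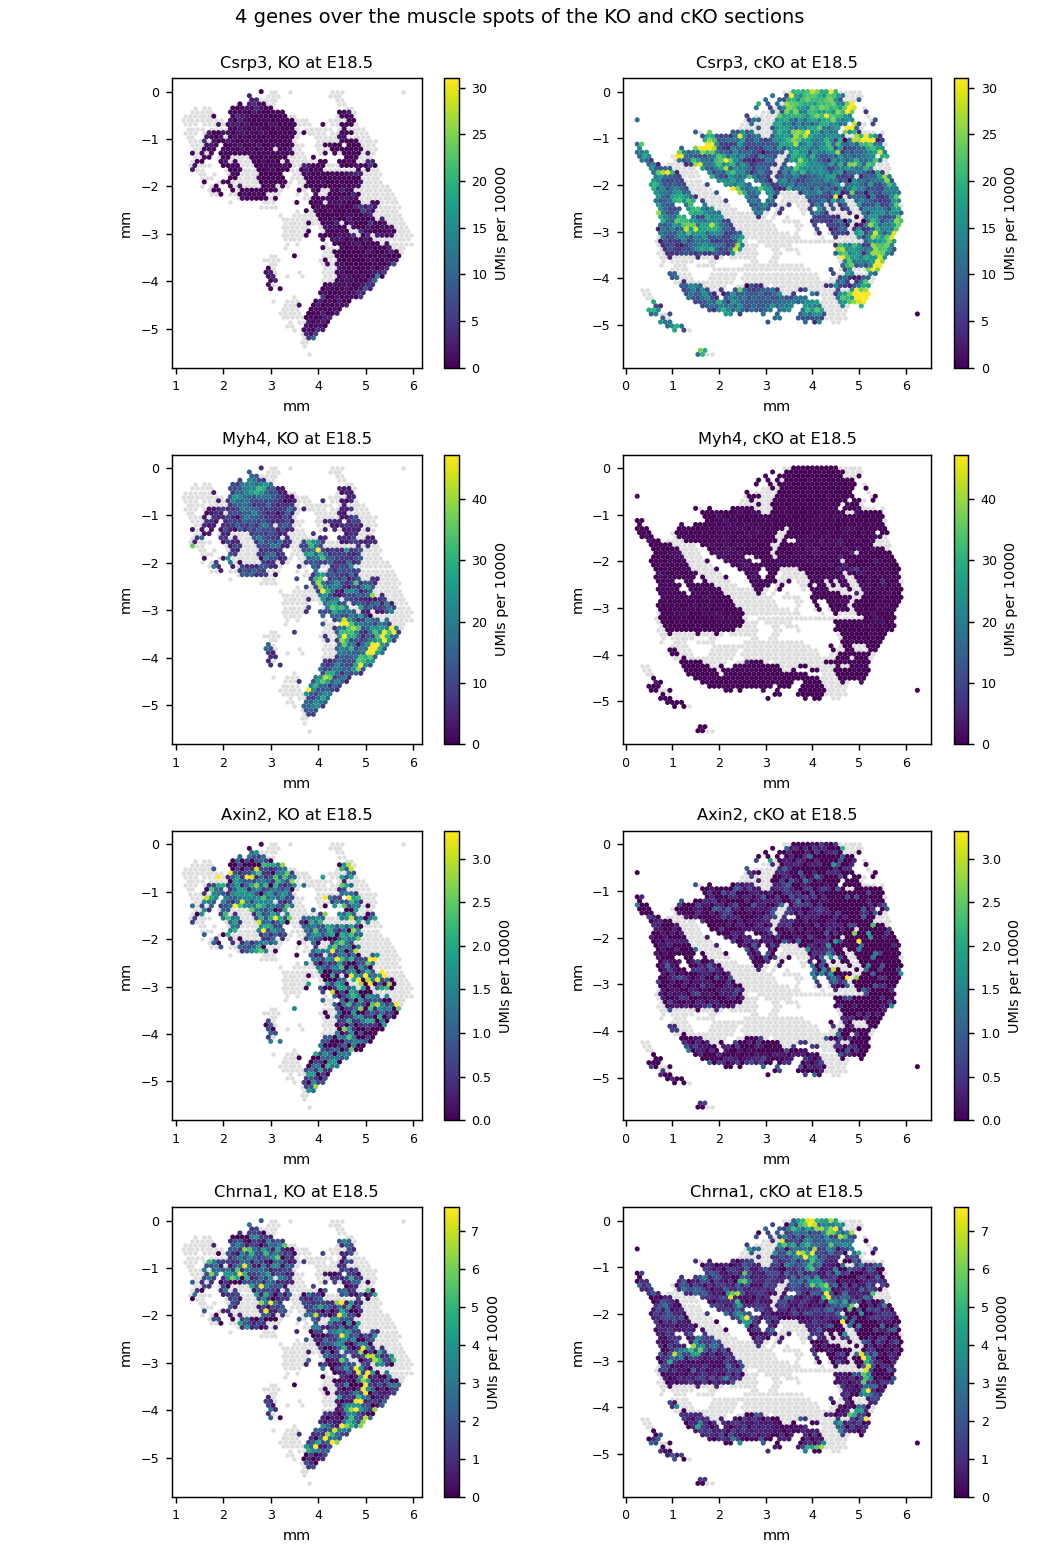
Muscle spots (colored) and other kept spots (gray) of the KO (left) and cKO (right) sections, in mm, colored by UMIs per 10000 of *Csrp3*, *Myh4*, *Axin2* and *Chrna1* on a scale shared within each row. *Csrp3* is low over all KO muscle and *Myh4* over all cKO muscle, *Axin2* is lower through most cKO muscle, and *Chrna1* is unevenly spread in both.

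At the NMJ 1 of 5 AChR subunits was called by edgeR and 2 by DESeq2, all higher in the KO. The fetal receptor holds the γ subunit (*Chrng*) and the adult receptor the ε subunit (*Chrne*) in its place. *Chrna1* had 190.1 CPM in the KO and 162 in the cKO, both above the controls at 116 and 114 (log2 difference 0.23 ± 0.20, adjusted p = 0.510), and was called higher in the KO among the muscle spots above their section's median score (0.70, adjusted p = 0.0336) and with scaling to muscle genes. *Chrng* stood at 215 and 234 CPM in the mutants and at 119 and 103 in the controls (adjusted p = 0.780), and its sign turned with scaling to muscle genes and among the muscle spots above their section's median score. *Chrnd* had 195 CPM in the KO, 119 in the cKO and 94.7 and 92.4 in the controls and missed the threshold (log2 fold change 0.72 ± 0.21 (SE), adjusted p = 0.0820). It passed, higher in the KO, in 6 alternatives: DESeq2 (adjusted p = 0.0190), no filter, E18.5 sections alone, muscle spots above the median score, scaling to muscle genes, and without control 1 at E14.5. *Chrnb1* stood at 117 and 146 CPM (adjusted p = 0.308), and its sign turned with scaling to muscle genes.

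*Chrne* was the subunit that edgeR called. It had 242 UMIs in the KO and 62 in the cKO, or 14 and 1.52 CPM, with controls at 5.34 and 5.65. The KO lay above both controls and the cKO below both, a ratio of 9.25 (counting interval 6.98 to 12.4, log2 fold change 3.21 ± 0.30 (SE), adjusted p = 0.00184), and the call held in all 17 alternatives. A *Chrne* UMI was in 21.5% of KO muscle spots (95% Clopper-Pearson interval 18.7% to 24.5%) and 3.42% of cKO muscle spots (2.58% to 4.44%). Outside muscle these shares were 3.86% and 0.517%. At 5000 UMIs they were 6.30% and 0.529% in muscle.

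The promoters of the 2 exchanged subunits (RefSeq, GRCm38.p6, *Chrne* chr11:70619195-70619354, minus strand; *Chrng* chr1:87205651-87205810, plus strand) are shown side by side, each 5′ to 3′ and ending at the base before the start. Capitals mark E-boxes in both and, in *Chrne*, the letters CCGGAA, the core bound by ETS factors such as GABP and known as the N-box at synaptic genes. This last motif was chosen after the values were seen.
Chrne: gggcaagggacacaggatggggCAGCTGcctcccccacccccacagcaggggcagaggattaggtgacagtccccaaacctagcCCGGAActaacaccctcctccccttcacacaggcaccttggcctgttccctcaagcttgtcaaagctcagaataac
Chrng: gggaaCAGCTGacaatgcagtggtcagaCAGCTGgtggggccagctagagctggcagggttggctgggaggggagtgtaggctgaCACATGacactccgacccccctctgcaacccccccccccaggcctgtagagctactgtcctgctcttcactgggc
Among tested genes with a matched promoter, CCGGAA stood in the 250 bases before the start of 19.4%. The shares were 8.97% for such genes higher in the KO and 15.4% for those higher in the cKO.

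Of 31 genes of the postsynaptic scaffold and its signals, 3 were higher in the KO and 3 lower (median 0.08), against 2.87% and 4.43% of all genes. Higher were *Ache*, acetylcholinesterase (75 against 37.7 CPM, log2 fold change 0.99 ± 0.19 (SE), adjusted p = 0.0255), the ETS factor *Etv5* (0.99 ± 0.16) and *Ufsp1* (1.20 ± 0.22). Among those lower were *Nes* (nestin, 85.7 against 259.6 CPM, log2 fold change -1.60 ± 0.19 (SE), adjusted p = 0.00438) and *Etv4* (-0.97 ± 0.18, 93 UMIs in the KO). *Etv4* lost the call with the E18.5 sections alone, in interior spots and with scaling to muscle genes, and both *Etv4* and *Ache* lost it without control 3 at E14.5. For *Ache*, the KO lay at 75 CPM by the controls at 60.8 and 72, and the cKO below them. The receptor kinase *Musk* (81.9 and 58.3 CPM), its coreceptor *Lrp4* (16.6 and 18.1), the adaptor *Dok7* (24.4 and 22.6) and the AChR anchor *Rapsn* (36.5 and 41) did not pass the test. *Musk* was called higher in the KO among the muscle spots above their section's median score (0.65) and with scaling to muscle genes (1.37). The sign of *Rapsn* turned with scaling to muscle genes, at matched muscle score and among the muscle spots above their section's median score.

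Some endplate transcripts were gathered in part of the muscle in both mutants, and others were not. For each of 8 endplate genes the 15% of muscle spots highest in the other 7 were taken, with spots thinned to 5000 UMIs, and the share of its UMIs there was divided by the share of all UMIs. This concentration was 2.07 for *Chrna1* in the KO (95% interval 1.86 to 2.29) and 2.34 in the cKO (2.14 to 2.53), whose intervals overlap, against 3.14 and 3.09 in the controls. For *Chrnd* it was 1.55 (1.36 to 1.75) in the KO and 2.09 (1.88 to 2.31) in the cKO, which do not overlap. *Chrng* gave 1.34 (1.17 to 1.52) and 1.69 (1.55 to 1.84). *Chrne*, scored with all 8 genes, gave 2.16 in the KO on 62 UMIs and 4.75 in the cKO on 14 UMIs, with intervals of 1.40 to 3.03 and 2.79 to 6.10. The rest of the 8, *Ache*, *Etv5*, *Prkar1a* and *Ufsp1*, lay between 1.88 and 2.69 in the KO and between 2.04 and 3.17 in the cKO, while *Musk* was at 1.25 (0.998 to 1.54) in the KO and 1.37 (1.09 to 1.68) in the cKO. Intervals that include 1, an even spread, were found for *Chrnb1* (1.06 and 1.14) and *Rapsn* (0.950 and 0.924) in both mutants, and for *Musk* in the KO. In the controls *Chrnb1* was at 1.28 (1.16 to 1.41) and 1.30 (1.16 to 1.45). *Rapsn* was at 0.781 and 1.07 there, and *Musk* at 1.89 and 1.93. *Dok7* (0.723, 0.382 to 1.21) and *Lrp4* (0.688, 0.283 to 1.34) had such intervals in the KO, and were at 1.49 (1.08 to 1.98) and 1.47 (1.01 to 2.03) in the cKO. The controls were at 0.684 (0.462 to 0.965) and 1.20 (0.863 to 1.60) for *Dok7*. For *Lrp4* they were at 1.32 (1.02 to 1.68) and 1.33 (0.992 to 1.73). Moran's I, which measures how alike neighboring spots are, was 0.147 for *Chrna1* in the KO and 0.196 in the cKO. For *Musk* it was 0.0544 in the KO and 0.00126 in the cKO, against 0.0393 and 0.0524 in the controls. The mutants thus stood in the opposite order to *Chrna1* by this measure. No test of these differences was run, and the intervals cover counting error only. The top 15% was 121 spots in the KO, 227 in the cKO, and 459 and 329 in the controls, so the area taken differed between sections. How far this moves the values was not tested.

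**Figure D4:**
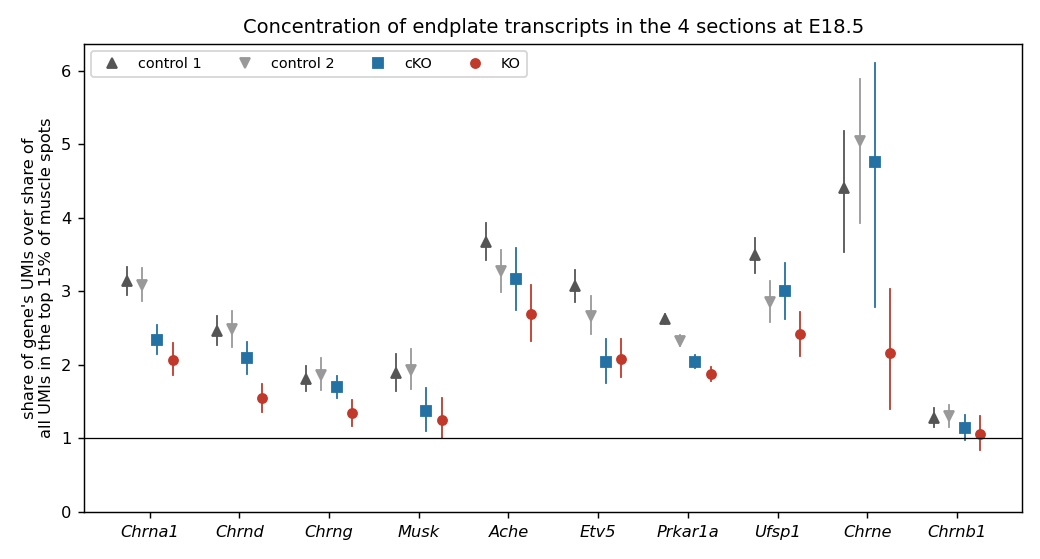
Concentration of 10 endplate transcripts (y axis, share of the gene's UMIs over share of all UMIs in the top 15% of muscle spots, 1 being even) in the 4 sections at E18.5, with exact 95% binomial intervals. The KO has the lowest value for every gene shown but *Etv5*, for which the cKO has it. The cKO lies between the KO and both controls for all but *Etv5*, *Ufsp1* and *Chrne*.

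Genes of synapse and axon growth that the study had picked on these same samples, and which are therefore no independent evidence, were higher in the KO in 5 of 15 and lower in 0 (median 0.47). *Lrtm1*, a leucine-rich repeat transmembrane protein, had 178 CPM in the KO, 28.9 in the cKO, and 187 and 211 in the controls, so that the KO lay near the controls and the cKO alone was low (log2 fold change 2.62 ± 0.23 (SE), adjusted p = 0.00160). *Col25a1*, a muscle collagen needed for motor innervation, had 36.8 CPM in the KO, 7.19 in the cKO, and 14 and 16.2 between them in the controls (log2 fold change 2.35 ± 0.17 (SE), adjusted p = 0.00115). *Matn4* (2.61 ± 0.51), *Cd24a* (1.23 ± 0.29) and *Metrn* (1.02 ± 0.16) were the other 3, and the first 2 of these lost the call without control 3 at E14.5 and *Metrn* at matched muscle score.

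Markers of Schwann cells, the glia of the motor nerve, were higher in KO muscle spots. The 7 markers summed to 211 raw CPM in the KO, 87.2 in the cKO and 68.2 and 72.9 in the controls, and 5 of 7 were called higher in the KO, among them *Sox10*, *Cdh19* (3.11 ± 0.39) and *S100b* (1.09 ± 0.20). *Sox10* had 16 CPM in the KO and 1.30 in the cKO (log2 fold change 3.62 ± 0.45 (SE), adjusted p = 0.00527). Outside muscle spots the 7 markers summed to 158 raw CPM in the KO and 149 in the cKO. Endothelium was 497 and 380.0 raw CPM, macrophages 599 and 393, fibroblasts 16202 and 17007, and satellite cell markers 79.7 and 55.9 in KO and cKO muscle spots. Smooth muscle genes other than *Des* summed to 528 in the KO and 858 in the cKO, with *Acta2* (-2.28 ± 0.25), *Cnn1* (-4.61 ± 0.53) and *Tagln* (-0.97 ± 0.16, lost with scaling to muscle genes) called, and outside muscle to 567 and 2710.1.

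Genes known to answer to denervation and activity were called in both directions. Of 25 tested, 4 were higher in the KO and 3 lower (median -0.07), against 2.87% and 4.43% of all genes. The immediate early gene *Fos* and the stress factor *Atf3* were lower in the KO, at 7.42 against 34.1 CPM (log2 fold change -2.20 ± 0.21 (SE), adjusted p = 0.00184) and 11 against 58.8 CPM (log2 fold change -2.42 ± 0.26 (SE), adjusted p = 0.00295). So was *Chrna9*, a nicotinic subunit outside the NMJ receptor, at 21 CPM in the KO, 112 in the cKO and 68.7 and 73.2 in the controls (log2 fold change -2.42 ± 0.19 (SE), adjusted p = 0.00117). Among those higher in the KO were *Gadd45a* (0.89 ± 0.12), the ubiquitin ligase *Fbxo32* (1.24 ± 0.24) and *Hdac4* (0.50 ± 0.11), of which the last 2 lost the call without control 3 at E14.5. *Myog*, which denervation induces, stood at 499.5 and 503 CPM in the mutants and at 315 and 318 in the controls, and *Runx1* at 10.9 and 11.7 against 6.07 and 6.76. Neither differed between KO and cKO by the test, and the sign of *Myog* turned with scaling to muscle genes and among the muscle spots above their section's median score.

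Of 20 myogenic and fusion genes, 3 were higher in the KO and 1 lower, against 2.87% and 4.43% of all genes. *Pax7*, of satellite cells (0.71 ± 0.13), *Eya1* (1.04 ± 0.16) and *Fst* were higher, although *Pax7* lost the call at matched muscle score, with the E18.5 sections alone and without control 3 at E14.5, and the cytokine *Il17b* was lower, at 3.54 against 24.1 CPM (log2 fold change -2.77 ± 0.35 (SE), adjusted p = 0.00547). Of the other genes with the largest called differences, *Fgfrl1*, a decoy-like FGF receptor, lay, like *Lrtm1*, below both controls in the cKO, with 664 CPM in the KO, 134 in the cKO and 995 and 1036 in the controls (log2 fold change 2.31 ± 0.21 (SE), adjusted p = 0.00184). So did, also with the KO nearer to the controls, *Ddit4l*, *Mylk3*, *Car14* and *Tspan12*, with log2 differences of 2.52, 2.06, 2.05 and 1.75. The endothelin receptor *Ednrb* (140.0 CPM), the anion exchanger *Slc4a3* (127) and the adhesion molecule *Alcam* (84.7) stood above both controls in the KO, and their cKO levels were 39.6, 30.1 and 21.6 CPM. The controls were at 58.2 and 57.4 for *Ednrb*, 30.8 and 37.0 for *Slc4a3*, and 9.78 and 10.9 for *Alcam*. Thus *Alcam* stood above both controls in both mutants. *Dio2*, which activates thyroid hormone, had 73.6 CPM in the KO and 21.5 in the cKO (log2 fold change 1.78 ± 0.17 (SE), adjusted p = 0.00184). On the other side, *Tppp3*, a tubulin polymerization protein, had 81.4 CPM in the KO, 751 in the cKO and 894 and 944 in the controls (log2 fold change -3.21 ± 0.21 (SE), adjusted p = 0.000809). *Smtnl1*, a smoothelin-like protein, (-2.56 ± 0.24) had 53.3 CPM in the KO and 315 in the cKO, both below the controls at 638 and 711. *Tnfrsf12a*, the TWEAK receptor, (-2.87 ± 0.19) had 37.7 CPM in the KO and 276 in the cKO, with controls at 213 and 244. *Col23a1* and *Adamtsl1* in the KO and *Aspn* and *Dpysl3* in the cKO complete these largest differences.

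**Figure D5:**
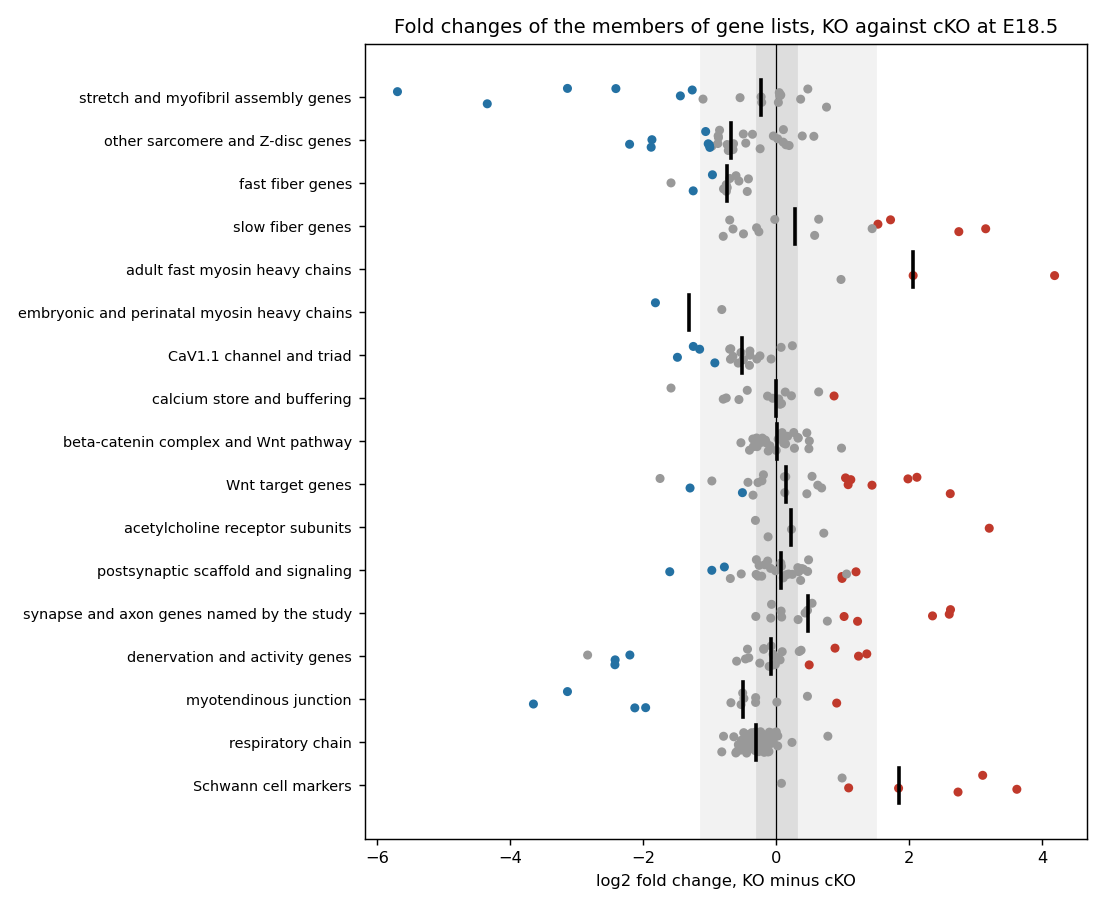
Log2 fold change (KO minus cKO, x axis) of the tested members of 17 gene lists (y axis), red where called higher in the KO, blue where called higher in the cKO and gray where not called. Black bars are list medians, the shaded bands hold 50% and 90% of all genes tested, and the vertical line is the median of all genes, 0.01. The medians of the sarcomere, fast fiber and triad lists lie left of it and that of the Schwann cell list to the right.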

How the data were processed

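Sections of formalin-fixed, paraffin-embedded mouse diaphragm were read with 10x Visium probes. The deposited matrices hold UMI counts per gene and spot, made by the authors with Space Ranger (2.0.0 in 3 sections and 2.0.1 in 5, per the file headers) on mm10 (GRCm38), with no replicates pooled. Spots under tissue with at least 1000 UMIs were kept, a cut was set by Otsu's method (scikit-image 0.26.0, 256 bins) on the mean log1p of counts per 10000 of the 9 muscle genes, and counts were summed over muscle spots of each section. Totals of these sums ranged from 12835167 to 75800909 UMIs over the 8 sections. A count of 0 allows up to 3 UMIs, or 0.174 CPM in the KO and 0.0734 CPM in the cKO, and intervals cover counting error only.

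The sums of all 8 sections in 5 groups were fitted with edgeR 4.0.16 (R 4.3.3; TMM, filterByExpr, glmQLFit and glmQLFTest), where the 3 residual degrees of freedom came from the controls (biological coefficient of variation 0.147). Adjusted p-values in the text are edgeR's with Benjamini-Hochberg adjustment. The labels do not say that controls came from separate litters. The study's own test over spots was not used, since spots are not replicates. The fit was tested on simulated data.

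Genes named are members of the gene lists, or the 15 with the largest log2 fold change in each direction among genes called over all muscle spots, in interior muscle spots and in muscle spots above the median score, where log2 CPM averaged 5 or more. Some list members are not reported here. The members and the lists were chosen with earlier results of these data known. DESeq2 1.42.0 and other settings were alternatives, and 3 were chosen after seeing the data (spots without other tissue, a muscle score range of 3.85 to 4.10 in the 4 sections at E18.5, and no KO section at E14.5). This score range kept 226 muscle spots of the KO, 355 of the cKO, and 287 and 150 of the controls at E18.5. Sections at E14.5 kept all their muscle spots. Fewer counts and a changed control spread thus enter the calls at matched muscle score too. Promoters were those of RefSeq (GRCm38.p6), matched by symbol for 11538 of 14832 genes (11532 symbols), and the motifs were searched on both strands. Python 3.11.15 with numpy 2.4.6, scipy 1.17.1, pandas 2.3.3 and matplotlib 3.10.9 was used.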

Additional observations from a re-analysis of the deposited data

Results flagged for a closer look

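Spots outside muscle entered no test and gave only background values beside the results. The 4 marker genes given here stood above both controls there, but they were picked and are not the only ones. Hepatocyte genes, for instance, summed to 13071 raw CPM outside KO muscle, against 9598 and 1.16 in the controls. *Krt4* was at 5574 raw CPM outside muscle in the cKO, against 0.142 and 0 in the controls. *Krt15* was at 4263 in the same section, against 0.284 and 0.435. Both are keratins of stratified epithelium. *Cnn1*, a smooth muscle calponin, was at 190.8 outside cKO muscle, against 7.80 and 20.3. *Sox10*, a factor of Schwann cells, was at 11.6 outside KO muscle, against 2.70 and 5.22. The same genes differed within muscle spots, where *Krt4* had 1.22 CPM in the KO and 163 in the cKO, *Krt15* 0.986 and 141, *Cnn1* 0.406 and 10, and *Sox10* 16 and 1.30. Their part in the differences between KO and cKO muscle was not tested.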

How the results depend on the processing

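No paired analysis was possible because KO and cKO have 1 section each. The counts of calls, 425 higher in the KO and 657 higher in the cKO, became 8262 and 220 with scaling to the 9 muscle genes, and 281 and 303 at matched muscle score. DESeq2 called 1054 higher in the cKO. Leaving out 1 control gave 206 to 634 and 306 to 831, and the lowest of both came without control 3 at E14.5, with 204 and 302 of the calls kept. By the fold rule, scaling to muscle genes gave 2681 and 56. At matched muscle score, list medians relative to all genes moved to -0.17 (sarcomere and Z-disc), -0.10 (triad), 0.71 (slow fiber) and -0.0902 (fast fiber). The Wnt target median relative to all genes was 0.14 in the main fit, and at matched muscle score it fell almost to the median of all genes. It moved up to 0.55 in muscle spots above the median score and to 0.47 without spots of other tissue. The shift of the Wnt target list thus depends on the spots taken. The median of the AChR subunits relative to all genes moved to 0.70 in the spots above the median score. For *Chrna1*, concentration in the KO was 2.41 in the top 10% of spots, 1.81 in the top 25% and 2.34 without thinning, and in the cKO 2.65, 1.83 and 2.59. Among the 121 named genes compared with alternatives, 5 turned sign past or from a call with scaling to muscle genes. They were *Chrng* (0.76), *Myog* (0.87), *Tnfrsf19* (0.37), *Atf4* (0.23) and *Kif13a* (0.32). The called genes *Scx*, *Col12a1* and *Tubb4b*, outside that set, turned sign there as well. Of 2057 comparisons of 121 named genes with alternatives, 1888 kept direction and side of the threshold, 103 lost the call, 41 gained it, and 20 turned sign with no call in either fit. The cause of these changes was not tested. Alternatives that left out control or E14.5 sections, or changed only the test or filter, kept the same KO and cKO sums. In them the direction was nearly fixed in advance, and only the call could readily change. Depth limits the genes with few UMIs, such as *Sp5* and *Chrne*.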

Other observations

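Of the genes of microtubules, 6 tubulins were lower in KO than in cKO muscle. Of 46 tubulin and kinesin genes tested, 7 were lower in the KO and 1 higher, while the median of the list was 0.15. *Tuba1a* stood at 233 CPM in the KO, 745 in the cKO and 464 and 381 in the controls (log2 fold change -1.68 ± 0.21 (SE), adjusted p = 0.00536). *Tubb2a* had 57.2, 194, 118 and 96.3 CPM in the same order (log2 fold change -1.76 ± 0.24 (SE), adjusted p = 0.00675). For both the KO lay below and the cKO above both controls. *Tubb2b* (-1.51 ± 0.32), *Tubb6* (-1.18 ± 0.27) and *Tuba1b* (-1.54 ± 0.36) lost the call without control 3 at E14.5. *Tubb4b* (-0.84 ± 0.14) and *Kif13a* (-0.56 ± 0.12) turned sign with scaling to muscle genes, and *Kif21a* was the gene higher in the KO (0.70 ± 0.13). Tubulin genes are near-identical in their coding sequence, so that levels of single members are uncertain.

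Of 19 stress genes, 2 were higher in the KO and 2 lower. *Fgf21*, a hormone that stressed muscle secretes, had 100 UMIs in the KO and 20 in the cKO, or 5.80 and 0.489 CPM, with controls at 0.636 and 0.652 (log2 fold change 3.56 ± 0.54 (SE), adjusted p = 0.0105). *Chac1*, a target of the integrated stress response, had 5.04 and 0.416 CPM (log2 fold change 3.59 ± 0.70 (SE), adjusted p = 0.0260), a call lost in interior spots, at matched muscle score and without control 3 at E14.5. *Hspa1a* was lower in the KO on 7 and 102 UMIs, a call lost in 8 alternatives, and *Atf4* by 0.65 on the log2 scale, which turned with scaling to muscle genes.

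Of 47 genes of the G2 and M phases 1 was called, *Tubb4b*, lower in the KO with TMM scaling, where 4.43% of all genes were. Of 72 nuclear genes of the respiratory chain edgeR called 0, with 21 at an unadjusted p under 0.05, and DESeq2 called 14 lower in the KO. Their median was -0.30 with TMM and turned to 0.58 with scaling to muscle genes, under the 0.89 of all genes. Of 37 clustered histone genes edgeR called 0, with 4 at an unadjusted p under 0.05, and DESeq2 called 2 lower. Of 43 collagen genes 3 were higher in the KO (*Col20a1*, *Col23a1*, *Col25a1*) and 3 lower (*Col12a1*, *Col22a1*, *Col5a1*), against 2.87% and 4.43% of all genes.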
